A study of Homo sapiens with 6 samples.

Results

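SNU-C1 is an established colon cancer cell line, and its chromatin folding was measured by in situ Hi-C in 1 map, which was set against the maps of the 3 other cancer cell lines of the study. The 22 autosomes of the SNU-C1 map held 21920585 pairs of 40-kb bins with a value, made from 111654971 read pairs, and SNU-C1 is 1 of the 6 samples deposited. The other lines were SW480, also from a colon cancer, HCC1954, from a breast cancer, and OE33, from an esophageal adenocarcinoma. No treatment or time is given for any of them. For SW480 there were 2 numbered replicate maps besides 1 map with no number, which equalled the sum of both replicates within 2% at 99.9% of the 3311772 bin pairs with 5 or more read pairs and stood for the line here.

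Chromosomes fold at several scales. Cohesin extrudes loops until it meets CTCF at a boundary, which gives topologically associating domains (TADs) inside which contacts are frequent. On a larger scale, gene-rich active chromatin (compartment A) and gene-poor inactive chromatin (compartment B) each contact their own kind. In a cancer genome, a rearrangement joins sequences that lie far apart in the reference, and Hi-C then shows frequent contacts between them.

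With 1 map per line there is no test across samples, so no p-value is given and a difference between lines cannot be told apart from a difference between libraries. The spread could be measured only between the SW480 replicates. The study calls its Hi-C replicates biological. Its methods state that Hi-C was done in duplicate, and whether the unnumbered SNU-C1, HCC1954 and OE33 maps each pool their duplicates is not stated in these sources. The other maps held 128426644 read pairs within autosomes in SW480, 89618230 in HCC1954 and 87123995 in OE33 cells. Pairs between chromosomes made up 14.8% of all read pairs in SNU-C1, 19.6% in HCC1954, 36.6% in OE33 and 0.263% in the SW480 map, which was therefore not used for chromosome pairs. The 62472 bins used had at least 0.25 of the autosomal median coverage in each line.

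SNU-C1 cells had the shortest contacts of the 4 lines. Pairs of bins 40 to 200 kb apart held 35.9% of the summed contact value in SNU-C1, 31.5% in SW480, 32.5% in HCC1954 and 30.3% in OE33 cells, and SNU-C1 was the highest on all 22 autosomes. Pairs over 20 Mb apart held 7.84% in SNU-C1, 10.4% in SW480, 9.11% in HCC1954 and 13.6% in OE33 cells. Relative to the middle value of the other 3, the SNU-C1 share was 0.752, and it was the lowest of the 4 on 16 of 22 autosomes, the exceptions being chromosomes 11, 15, 18, 19, 20 and 22. The SW480 replicates had 10.39% and 10.45%, so the lines differed by more than the replicates did.

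**Figure D1:**
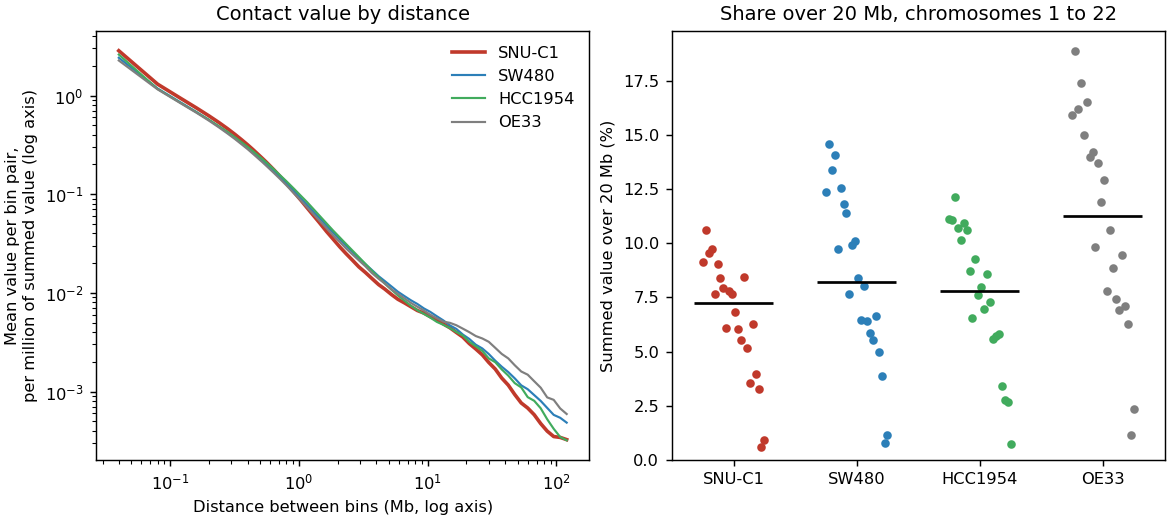
Left, mean contact value per bin pair against distance on log axes, scaled to the summed value of each map; right, the share of the summed value over 20 Mb on each autosome (points, in chromosome order) with the median (line). The SNU-C1 curve is the highest at the shortest distances and meets that of HCC1954 at the longest, and its median share on the right is 7.25%, against 8.22% in SW480, 7.79% in HCC1954 and 11.2% in OE33 cells.

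The difference was not even along the distance axis. Contacts 1 to 5 Mb apart held 15.1% in SNU-C1 against 16.5% to 18.1% in the other lines, and SNU-C1 was the lowest on all 22 autosomes. Contact value fell with distance with a log-log slope of -1.34 between 200 kb and 2 Mb in SNU-C1, against -1.22 in SW480, -1.19 in HCC1954 and -1.24 in OE33 cells. Between 2 and 20 Mb the SNU-C1 slope was the shallowest, at -0.91, and OE33 was near it at -0.92. Between 20 and 80 Mb it was the steepest, at -1.54, against -1.14 in SW480, -1.28 in HCC1954 and -1.02 in OE33 cells. SNU-C1, HCC1954 and OE33 cells stood in the same order in the share of read pairs between chromosomes as in the share over 20 Mb, and whether these shares are connected was not tested.

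TAD boundaries were mostly shared, and SNU-C1 had the most. Boundaries were minima of the insulation score, the log2 of the mean contact value across a bin in a 1-Mb window over the chromosome mean, with a strength of at least 0.1. There were 2536 in SNU-C1, 2445 in SW480, 2468 in HCC1954 and 2262 in OE33 cells, and 2450 and 2440 in the SW480 replicates. Of the SNU-C1 boundaries, 82.2% had a SW480 boundary within 2 bins (80 kb), 79.1% a HCC1954 boundary and 72.1% an OE33 boundary, while 96.3% of the boundaries of SW480 replicate 1 were found in replicate 2.

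At the 1549 boundaries that all 4 lines shared, the median strength was 0.82 in SNU-C1, 0.76 in SW480, 0.79 in HCC1954 and 0.79 in OE33 cells. SNU-C1 was the stronger line at 64.8% of them against SW480, at 56.2% against HCC1954 and at 54.0% against OE33. The median exceeded the middle one of the other lines by 0.026. This difference was 0.047 without iterative correction, 0.043 with a tolerance of 1 bin and 0.040 with a 480-kb window. Across 59504 bins the insulation scores of SNU-C1 correlated with SW480 at r = 0.895, with HCC1954 at 0.872 and with OE33 at 0.864, and those of the SW480 replicates with each other at 0.997. These correlations are across bins, which are not independent.

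A boundary found in SNU-C1 and in no other line within 2 bins occurred 204 times, 8.04% of its boundaries. The same count was 183 in HCC1954, 174 in OE33 and 129 in SW480 cells. These boundaries were weak, with a median strength of 0.30 against 0.67 for all SNU-C1 boundaries, and 79 of them had a boundary of another line 3 to 5 bins away. Boundaries present in the other 3 lines and absent in SNU-C1 numbered 68, against 74 absent in SW480 only, 81 in HCC1954 only and 217 in OE33 only.

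The strongest boundary found in SNU-C1 only, with a strength of 1.77, lay on chromosome 3 in the bin that starts at 157.12 Mb, beside the start of *PTX3*, which encodes a soluble pattern recognition protein. Its insulation score was -0.66 in SNU-C1, -0.35 in SW480, -0.47 in HCC1954 and -0.59 in OE33 cells. A boundary near *CCNL1* at 156.96 Mb, 160 kb away, was called in the other lines and not in SNU-C1, yet the insulation score there was -0.73 in SNU-C1, lower than the -0.59 of SW480, the -0.58 of HCC1954 and the -0.68 of OE33 cells. On chromosome 5 a boundary at 16.16 Mb by *MARCHF11* was called in SNU-C1 only and one at 16.40 Mb near *ZNF622* in the other lines only. At *ZNF622* SNU-C1 scored -0.71, close to SW480 at -0.69, while HCC1954 and OE33 were at -1.06 and -1.12.

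The other strong boundaries in SNU-C1 only were near *KCNK13* on chromosome 14 (strength 1.46), near *SYNM* on chromosome 15 (1.18) and near the gene model ENSG00000273398 on chromosome 2 (1.07). At *KCNK13* the insulation score was -0.42 in SNU-C1, -0.30 in SW480, -0.41 in HCC1954 and -0.49 in OE33 cells, so SNU-C1 was not the most insulated line. At *SYNM*, an intermediate filament gene, the insulation score was -0.91 in SNU-C1 and between -0.37 and -0.24 in the other lines. Of the 5 strongest boundaries absent in SNU-C1 only, 3 were on chromosome 15, near *UACA*, *SQOR* and *STOML1*. That chromosome held 13 of all 68 absent boundaries and 16 of the 204 in SNU-C1 only, so most of both lay elsewhere. Yet it had only 73 of the 2536 SNU-C1 boundaries. Of these 73, 21.9% were in SNU-C1 only, the highest share of any autosome, against 8.04% over all. At *SQOR*, which encodes a mitochondrial sulfide oxidoreductase, SNU-C1 nonetheless scored -1.10 against -1.41 to -1.14 in the other lines.

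Compartments were read from an eigenvector of the contact matrix of each chromosome arm in 200-kb blocks, signed by gene density, with scores above 0 called A and scores in units of the SD within the arm. The scores of SNU-C1 correlated with SW480 at r = 0.817, with OE33 at 0.805 and with HCC1954 at 0.749 over 12226 blocks of 37 arms, and those of the SW480 replicates at 0.994. In SNU-C1 44.6% of blocks were A, against 48.6% in SW480, 50.3% in HCC1954 and 44.4% in OE33 cells. The contrast between like and unlike contacts was 1.76 on the log2 scale in SNU-C1, 2.00 in SW480, 1.58 in HCC1954 and 2.35 in OE33 cells, and 1.93 and 1.94 in the SW480 replicates. The contrast of SNU-C1 was 0.24 below the median of the other lines on the log2 scale (-0.24). This difference was -0.15 when bins needed a coverage of 0.5 and -0.18 or -0.17 with either SW480 replicate alone. It was lower than that of SW480 on 34 of 37 arms and higher than that of HCC1954 on 26.

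Of the 12226 blocks, 260 (2.13%) were A in SNU-C1 and B in the other 3 lines, and 360 (2.94%) were B in SNU-C1 only. Other lines had from 79 (OE33) to 458 (HCC1954) blocks A in 1 line only and from 116 to 157 B in 1 line only, so SNU-C1 had the most private B blocks. The calls were uneven, since arms 5q and 4q held 172 of the A and 100 of the B calls. On 5q the score of SNU-C1 came from the second eigenvector and that of the other lines from the first, and its correlation with SW480 was 0.345. The lines also took different eigenvectors on 8p, 9p, 19p, 19q, 20p and 21q, and on 19q SNU-C1 correlated with HCC1954 at only 0.268 and with OE33 at 0.245. A score from contacts with the blocks of constant compartment, added after seeing the data, gave 106 A and 219 B blocks, of which 85 and 181 were also called by the eigenvector. Without arms 4q and 5q 88 A blocks were called, and with either SW480 replicate alone in place of the full SW480 map there were 160 or 161.

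Among the 10 stretches of neighbouring blocks with the largest difference in each direction, 7 of the A stretches lay on 5q. Of the 10 B stretches, 4 lay on 4q or 5q. By the score from constant blocks, 2 of the 10 A stretches and 5 of the 10 B stretches were called in full. The A stretches were on 3p from 18.4 to 18.8 Mb, which overlaps *TBC1D5* and *SATB1*, a gene for a chromatin-organizing protein, and on 5p from 27.6 to 28.0 Mb, which overlaps no protein-coding gene. The 3p stretch had a mean score of 0.43 in SNU-C1, -1.26 in SW480, -1.49 in HCC1954 and -1.27 in OE33 cells. The longest A stretch, 18 blocks on 4q from 62.6 to 66.2 Mb over *ADGRL3*, *EPHA5* and *TECRL*, was called by constant blocks in 5 of them.

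The B stretches included 14q from 51.2 to 52.4 Mb, with *FRMD6*, *GNG2* and *TRIM9*, which scored -0.83 in SNU-C1 and 0.69, 1.22 and 0.89 in SW480, HCC1954 and OE33 cells. On 20q from 50 to 50.6 Mb, over *NFATC2*, *ATP9A* and *SALL4*, a zinc-finger transcription factor of stem cells, the score was -0.69 in SNU-C1 and 0.71 to 0.81 in the other lines. Further B stretches were 7p from 41 to 41.6 Mb with no protein-coding gene and 6q from 100.6 to 101.0 Mb with *ASCC3* and *SIM1*. Another was 1 block of 13q at 102.2 Mb within *FGF14* and *ITGBL1*. The 13q block scored -1.20 in SNU-C1 and 0.93 to 1.05 in the other lines.

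The count of listed intestinal genes in compartment A was highest in SNU-C1, by a small margin. Of 18 intestinal genes with a score, 15 were A in SNU-C1 (83.3%), 12 in SW480, 11 in HCC1954 and 12 in OE33 cells, where all 17333 protein-coding genes gave 73.5%, 76.5%, 76.5% and 72.7%. The lead over SW480 rests on few genes, among them *CEACAM5* and *ATOH1*. By contacts with constant blocks *CEACAM5* was A in SW480 too (0.16), and *ATOH1* scored only 0.03 in SNU-C1. The median score of the list was 0.77 in SNU-C1, below the 0.86 of SW480, while over all genes it was 0.81 and 0.95. Compartment scores are not expression, and no RNA was measured here.

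Blocks that were A in SNU-C1 only held the starts of 1.37% of all protein-coding genes. *ATOH1*, the transcription factor of secretory cells, started in such a block and scored 0.42 in SNU-C1 and between -1.19 and -0.83 in the others. It lies on 4q, and by constant blocks it scored 0.03 in SNU-C1, against -0.59 in HCC1954, the nearest line. *CDX1*, a homeobox factor of intestinal identity, had its highest score in SNU-C1 (1.90, against 0.85 to 1.47), but it lies on 5q, and by constant blocks HCC1954 was close to SNU-C1 (1.72 and 1.84).

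*FABP1*, which encodes the fatty acid binding protein of liver and gut, scored 0.51 in SNU-C1 and 0.68 in SW480 but -0.26 in HCC1954 and -0.60 in OE33 cells. *GPA33*, an antigen of intestinal epithelium, scored 0.64 and 0.87 in the colon lines, -0.34 in HCC1954 and 0.04 in OE33 cells. *CEACAM5*, an adhesion molecule of colon epithelium on 19q, was B in SW480 by the eigenvector (-0.49) and A by constant blocks (0.16). *LGR5*, a receptor of intestinal stem cells, was below 0 in all 4 lines, least so in SNU-C1 (-0.17, against -0.44, -0.94 and -1.36 in SW480, HCC1954 and OE33 cells).

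**Figure D2:**
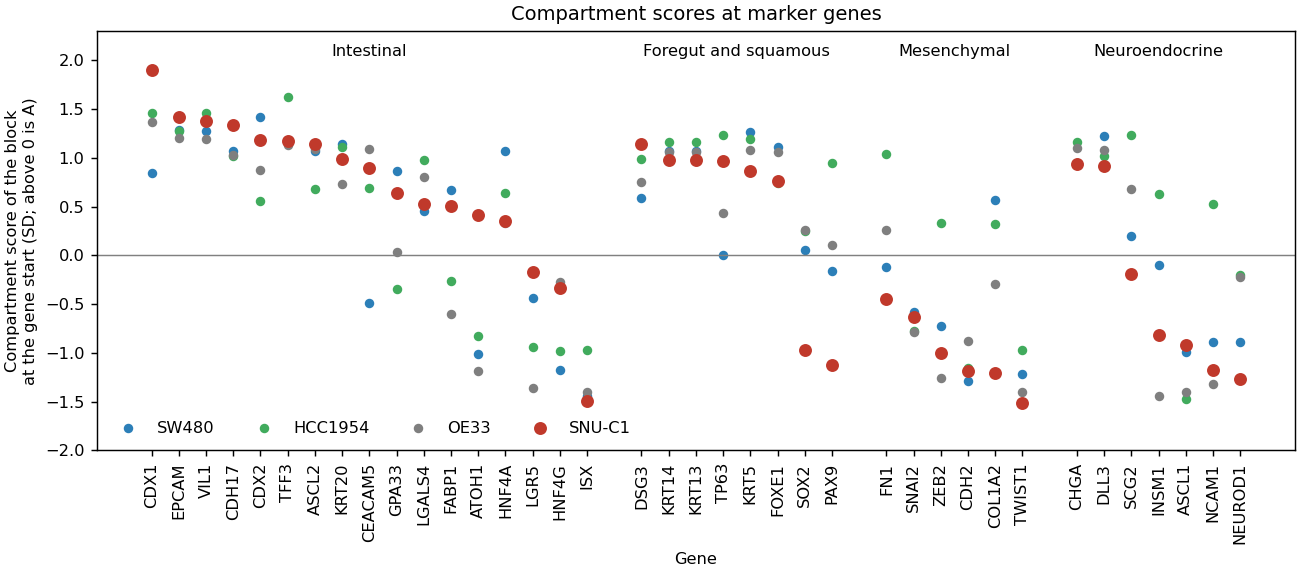
Compartment score (SD within the arm, above 0 is A) of the 200-kb block at the start of the marker genes reported here, for 4 lists, with SNU-C1 as large points and 1 point per line. *ATOH1* is above 0 in SNU-C1 only, *SOX2* is below 0 in SNU-C1 only, and 0 of 6 mesenchymal genes are above 0 in SNU-C1.

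Of 8 mesenchymal genes 6 had a score, and the others lie on arm 10p, which was not used. Of the 6, 0 were A in SNU-C1, 1 in SW480, 3 in HCC1954 and 1 in OE33 cells. For this list and the following ones, the shares of all protein-coding genes in A were 73.5%, 76.5%, 76.5% and 72.7% in the same order. *COL1A2*, a collagen gene, scored -1.21 in SNU-C1, 0.57 in SW480, 0.32 in HCC1954 and -0.29 in OE33 cells. Of 8 genes of the foregut and squamous epithelium, 6 were A in SNU-C1, 7 in SW480 and 8 in each of HCC1954 and OE33. *SOX2*, a transcription factor of foregut and stem cells, was B in SNU-C1 only (-0.97, against 0.06 in SW480, 0.25 in HCC1954 and 0.26 in OE33 cells), as were 2.45% of all protein-coding genes.

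Neuroendocrine genes were A for 2 of 7 in SNU-C1, against 3 in SW480, 5 in HCC1954 and 3 in OE33 cells. In HCC1954 *INSM1* on 20p, where the lines took different eigenvectors, was A by the eigenvector (0.63) and B by constant blocks (-1.50). Of 7 mammary genes, 4 were A in SNU-C1, 3 in SW480, 5 in HCC1954 and 3 in OE33. The mammary gene *TRPS1*, a GATA-type repressor, was A in SNU-C1 (0.86) and HCC1954 (1.01) and B in SW480 (-1.28) and OE33 (-0.75) cells.

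In the Wnt list, the pathway that drives intestinal stem cells, 10 of 15 genes were A in SNU-C1, against 13 in SW480, 11 in HCC1954 and 9 in OE33 cells. *DKK1*, a secreted Wnt inhibitor, was the only one of them in a block B in SNU-C1 only, with -0.92 against 0.22, 0.47 and 0.30 in SW480, HCC1954 and OE33 cells. *RNF43*, a ligase that removes Wnt receptors, scored -0.37 in SNU-C1 and 0.86 in SW480. *CTNNB1*, which encodes β-catenin, scored 1.17 in SNU-C1 and 1.02 in SW480, against 0.14 and -0.04 in HCC1954 and OE33 cells.

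The other lists had no block private to SNU-C1. Genes of TGF-β and BMP signaling were A for 11 of 13 in SNU-C1, against 10 in SW480, 12 in HCC1954 and 10 in OE33 cells. Mismatch repair and genome maintenance genes were A for 7 of 9 in SNU-C1, SW480 and HCC1954 and for 8 in OE33. Cohesin and domain factors were A for 8 of 10 in SNU-C1 and 9 in each other line. *GREM1*, a BMP antagonist, scored 1.07 in SNU-C1 and -0.24 in SW480. All 10 genes of fragile sites were B in SNU-C1, HCC1954 and OE33, and 1 was A in SW480. Of 15 listed genes of chromosome 15, 12 were A in SNU-C1, 11 in SW480 and 10 in each of HCC1954 and OE33. Over all protein-coding genes the A shares lay between 72.7% and 76.5% in the lines.

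Coverage is the read pairs of a bin relative to the autosomal median. It includes pairs between chromosomes, which the SW480 map nearly lacks, so the SW480 values are not of quite the same kind. On no arm did the SW480 replicates differ by more than 2.35%. In SNU-C1 13q stood highest, at 2.29, against 1.08 in SW480, 0.985 in HCC1954 and 0.840 in OE33 cells. Of 39 arms, 5 stood at least 25% above the median of the other lines and 6 at least 20% below it. With pairs within chromosomes only, 5 arms were high and 5 low. Coverage reflects copy number and also how well a region is captured, and these cannot be told apart here.

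After 13q (2.32 times the other lines) came 8q (1.69), 20q (1.51), 9p (1.37) and 5p (1.26). SNU-C1 was not the highest line on 9p, where HCC1954 stood at 1.35 and SNU-C1 at 1.09, and on 8q it was close to HCC1954 (1.63 and 1.56). On 20q SNU-C1 stood at 2.14 and OE33 close to it at 2.11. The low arms were 19q (0.629 times), 17p (0.722), 18p (0.744), 10q (0.759), 19p (0.774) and 8p (0.793). On 18p OE33 was lower than SNU-C1, and on 8p HCC1954 was. The arms nearest to the limits on the outside were 1q at 1.23 and 17q at 0.803.

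**Figure D3:**
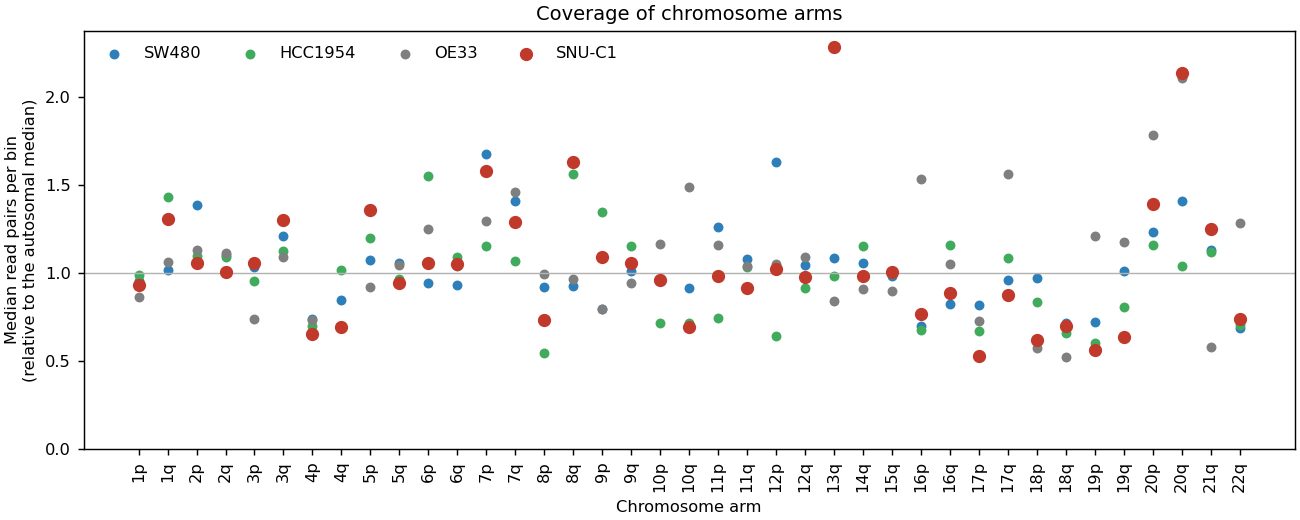
Median read pairs per usable 40-kb bin of each chromosome arm, relative to the autosomal median, with 1 point per line and SNU-C1 as large points. Arm 13q of SNU-C1 is at 2.29 and 20q at 2.14, and 17p, at 0.526, is its lowest.

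Coverage was also read at the listed genes. Over the 1 Mb around a gene, SNU-C1 coverage was at least 25% above the median of the other lines at 7 of 20 intestinal genes, against 10.3% of all protein-coding genes. They included *CDX2* on 13q, the homeobox factor that specifies intestinal epithelium (coverage of 2.62 in SNU-C1, 1.17 in SW480, 0.946 in HCC1954 and 1.29 in OE33 cells), and *HNF4A* on 20q, a nuclear receptor of the gut (2.35, 1.63, 1.29 and 2.20). *CDH17*, an intestinal cadherin on 8q, stood at 1.81 in SNU-C1 and 3.77 in HCC1954. Arms 13q, 20q and 8q were high as a whole, so genes on them are not independent observations. At 5 of the 20 genes SNU-C1 coverage was at least 20% below that median, against 37.4% of all protein-coding genes. Among them were *LGALS4* and *CEACAM5* on 19q (0.508 and 0.581 times). In the Wnt list 7 of 16 genes were that low and 1 was high. *MYC*, the growth-promoting target of Wnt signaling on 8q, had a coverage of 2.07 in SNU-C1, 7.70 in SW480, 3.65 in HCC1954 and 2.02 in OE33 cells, so SNU-C1 was near the lowest line there.

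A stretch of 5q with *APC* had low coverage in SNU-C1 and not in the other lines. *APC* restrains Wnt signaling by helping to destroy β-catenin. The median over 1 Mb around it was 0.253 in SNU-C1, 1.37 in SW480, 2.47 in HCC1954 and 1.15 in OE33 cells. In this median, bins without values were counted as having no coverage. From 109.36 to 113.04 Mb, 49 bins with values had a median coverage of 0.259 in SNU-C1 (0.195 to 0.383), against 1.27 in SW480, 1.88 in HCC1954 and 0.885 in OE33 cells, so every SNU-C1 bin lay below every bin of the other lines. The other 43 bins there had no values in SNU-C1.

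From 113.04 to 115.64 Mb all 65 bins were without values in SNU-C1, while all had values in the other lines (medians of 1.17, 1.86 and 1.01 in SW480, HCC1954 and OE33 cells). This run overlaps 14 protein-coding genes, the longest of which are *KCNN2* and *COMMD10*. The 2 Mb before the stretch had a median of 1.01 in SNU-C1 and the 2 Mb after it 0.625. The lowest bin with values in the SNU-C1 map had 622 read pairs, a coverage of 0.168, and a bin without values can be one that the authors' correction left out.

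**Figure D4:**
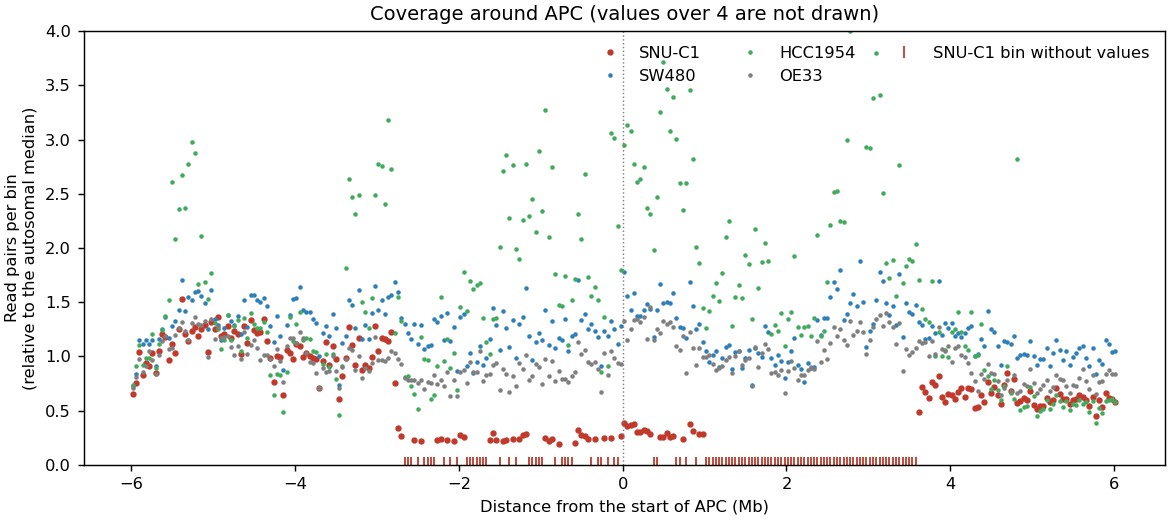
Read pairs per 40-kb bin, relative to the autosomal median, within 6 Mb of the start of *APC* on chromosome 5 (points, 1 colour per line), with ticks at the bottom for SNU-C1 bins without values. The SNU-C1 points drop to a median of 0.259, are missing over the following 2.6 Mb, and return at about 0.625.

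The stretch held 130 of the 189 bins that were low in SNU-C1 only, meaning under 0.25 there and at least 0.5 in each other line. The same count was 172 in SW480, 282 in HCC1954 and 673 in OE33 cells. Of the 189 bins, 167 had no values, and 136 lay in 8 runs of 5 or more bins. The 6 runs on 5q also overlap *TMEM232*, *WDR36*, *TSLP*, *CAMK4*, *NREP* and *EPB41L4A*. The other 2 runs lay on 7p, from 1.52 to 1.84 Mb over *ELFN1*, *INTS1*, *TMEM184A*, *MAFK* and *PSMG3*, and from 2.12 to 2.32 Mb over *MAD1L1*, *SNX8*, *NUDT1* and *MRM2*.

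Outside chromosomes 5 and 7 the low bins were few, 27 in all. Of these, 4 lay in *MACROD2* and 1 in *LRP1B*, genes of common fragile sites, and each had no values in SNU-C1. Both genes are long, at 52 and 49 bins, and over all autosomes 189 of 72036 bins were low in SNU-C1 only. How many of all protein-coding genes hold such a bin was not counted, so no excess at these genes can be read from this. Of the 10 listed genes of such sites 7 had none, *FHIT* and *WWOX* among them. Bins without values can be ones that the authors' correction left out.

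Most contacts within chromosomes that were specific to SNU-C1 lay on chromosome 15. A pair of 200-kb blocks at least 2 Mb apart counted as specific when its observed/expected value (O/E), with the mean at the same distance as the expected value, was at least 4, at least 4 times that of the highest other line, and rested on 10 or more read pairs. Of 4369059 block pairs, 1815 (0.0415%) were specific to SNU-C1, against 469 to SW480, 1904 to HCC1954 and 769 to OE33. Chromosome 15 held 1208 of them, 1.79% of its block pairs, and 607 lay elsewhere. Both the total and this share depended on the settings, since chromosome 15 held 1804 of 5604 specific pairs without iterative correction and 1240 of 8555 without the read-pair minimum.

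Chromosome 15 pairs joined 241 blocks over separations from 2.2 to 78 Mb, with a median O/E of 11.8 and a median of 81 read pairs. The block pair with the most read pairs was that at 74.8 Mb, with *EDC3*, *ARID3B* and *CLK3*, and at 77.4 Mb, with *PEAK1*, a pseudokinase of the cytoskeleton. It had 1737 read pairs (95% Poisson interval 1656 to 1821, which covers counting error only) and an O/E of 10.3, against 0.589 in the highest other line. At its richest bin pair SNU-C1 had 250 read pairs, SW480 6, and HCC1954 and OE33 1 each.

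Chromosome 3 had 235 specific block pairs and the highest single O/E among the leading pairs of the 5 chromosomes with the largest shares. The block at 4.6 Mb, within *ITPR1*, a calcium channel of the endoplasmic reticulum, met that at 87.4 Mb with 1049 read pairs (986 to 1114) and an O/E of 203, against 3.02 in the highest other line. In the bins at 4.68 and 87.44 Mb there were 598 read pairs in SNU-C1 and 0 in each of the other 3 lines. SW480 had nearly as many specific pairs on this chromosome (205).

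Chromosome 19 had 52 specific block pairs, all 28.4 to 34.2 Mb apart, led by blocks at 21.4 and 52.6 Mb with an O/E of 66.5 against 2.41 (212 read pairs, 184 to 243). Both blocks hold zinc-finger genes (*ZNF708* and *ZNF493*, *ZNF616* and *ZNF766*), a family whose members resemble each other, and how reads were placed among them was not tested. On chromosomes 13 and 9, with 22 and 36 specific pairs, the leading pairs rested on 41 and 26 read pairs. Chromosomes 14, 20, 21 and 22 had 0.

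Between chromosomes, 4613 of 2968609 pairs of 1-Mb blocks (0.155%) were specific to SNU-C1 against HCC1954 and OE33 by the same limits, with the mean of all such pairs as the expected value. HCC1954 had 10771 and OE33 1558. The SNU-C1 count depended on the settings. It was 12669 without iterative correction, 2750 with expected values from block coverage and 1116 with 2-Mb blocks. In SNU-C1 5 of 231 chromosome pairs held 90.8% of the calls, against 33.7% in the 5 leading pairs of HCC1954 and 82.0% in those of OE33.

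Chromosomes 3 and 5 led, with 1973 specific block pairs. All but 38 were above 61.40 Mb of chromosome 3 and above 71.00 Mb of chromosome 5, the bins with the most read pairs (12, interval 6.20 to 21.0). The chromosome 5 bin overlaps *CARTPT*, which encodes a neuropeptide, and the gene start nearest to the chromosome 3 bin is that of *PTPRG*, a receptor phosphatase. Over 3 by 3 bins around them there were 50 read pairs in SNU-C1 and 0 in both HCC1954 and OE33.

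In that quadrant the O/E fell with the summed distance from both bins, from 40.6 under 10 Mb to 16.9 at 10 to 30 Mb, 7.14 at 30 to 60 Mb and 2.84 at 60 to 120 Mb, and was 3.05 beyond that. The values of HCC1954 and OE33 lay between 0.596 and 0.980 at all distances. Pairs at the same distance on 1 chromosome of SNU-C1 had 165, 37.9, 12.6 and 4.58 times the mean between chromosomes. Coverage in SNU-C1 was 0.956 over the 10 Mb below the chromosome 3 bin and 1.41 above it, and 0.696 below the chromosome 5 bin and 1.15 above it, and no other line had steps of this size at both bins.

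**Figure D5:**
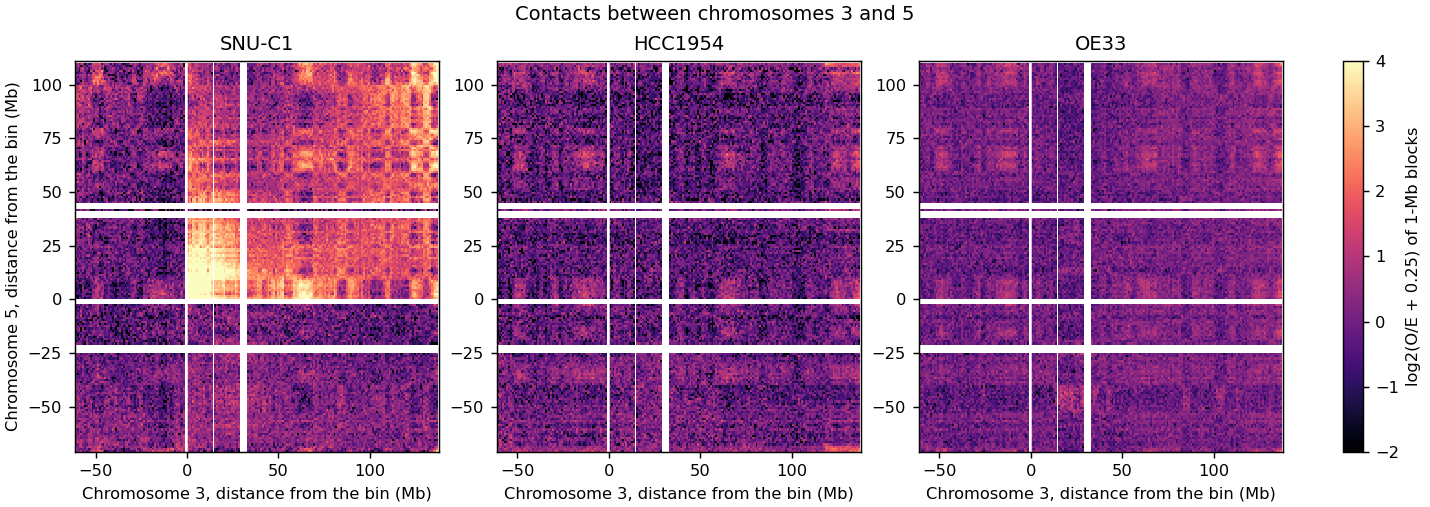
O/E of 1-Mb block pairs between chromosomes 3 (horizontal) and 5 (vertical) on the log2 scale after 0.25 was added, in 3 lines, with axes in Mb from the bins with the most read pairs in SNU-C1 and white for blocks left out. In SNU-C1 the quadrant above both bins is filled and fades with distance, from an O/E of 40.6 under 10 Mb to 2.84 at 60 to 120 Mb, with brighter patches beyond (3.05 over 120 Mb), while HCC1954 and OE33 show no such corner.

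Chromosomes 7 and 20 had 1109 specific block pairs and the highest mean O/E of all chromosome pairs in SNU-C1 (4.28, against 1.08 in HCC1954 and 1.36 in OE33 cells). Of these, 1063 lay above 2.36 Mb of chromosome 7, in *SNX8* and *EIF3B*, and above 35.52 Mb of chromosome 20, in *SAMHD1*, which encodes an enzyme that hydrolyzes dNTPs, and *TLDC2*. That bin pair had 275 read pairs (243 to 309), and 3 by 3 bins around it held 1186 in SNU-C1 against 1 in HCC1954 and 4 in OE33 cells. Coverage on chromosome 20 rose in SNU-C1 from 1.16 below the bin to 2.34 above it, while SW480 had 1.46 and 1.45. On chromosome 7 the bins of 7p that were low in SNU-C1 only ended at 2.32 Mb, 40 kb before this bin.

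Chromosomes 12 and 13 had 486 specific block pairs, of which 484 were below 103.00 Mb of chromosome 13, on both sides of 99.52 Mb of chromosome 12. The bins overlap *ANKS1B*, a gene of synapses, and *FGF14*, a modulator of sodium channels, and held 61 read pairs (46.7 to 78.4). *FGF14* also overlaps the 13q block that was B in SNU-C1 only. Chromosomes 7 and 8 had 382, of which 376 were below 103.00 Mb of chromosome 7, in *SLC26A5* and *PSMC2*, and above 61.76 Mb of chromosome 8, in *CHD7*, a chromatin remodeler, with 106 read pairs (86.8 to 128). Coverage of chromosome 8 was 1.22 below that bin and 1.66 above it in SNU-C1, and on chromosome 7 there was no such step (1.39 below and 1.36 above).

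Chromosomes 2 and 17 had 238 specific block pairs, all below 21.20 Mb of chromosome 2, in *APOB*, and above 21.20 Mb of chromosome 17, in *MAP2K3*. The bin pair held 21 read pairs (13 to 32.1), and 3 by 3 bins around it 43 in SNU-C1 and 0 in HCC1954 and OE33 cells. Coverage in SNU-C1 was 1.28 below the chromosome 2 bin and 0.914 above it, and 0.559 and 0.862 on the sides of the chromosome 17 bin. The 10 Mb above the chromosome 17 bin include that gap. The step at the chromosome 17 bin was larger in HCC1954 (0.694 and 1.32) and OE33 (0.611 and 2.11), so it was not particular to SNU-C1.

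Over all 231 chromosome pairs the mean O/E of SNU-C1 correlated with that of HCC1954 at r = 0.586 and with that of OE33 at 0.645, which is a description across pairs that share chromosomes. The 10 pairs among the gene-rich chromosomes 16, 17, 19, 20 and 22 had a mean O/E of 2.09 in SNU-C1 against 2.11 in HCC1954 and 2.00 in OE33 cells, and the other pairs had 1.13, 1.13 and 1.05.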

How the data were processed

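Per the study's methods, MboI was the restriction enzyme of the in situ Hi-C libraries, BWA-MEM the aligner (to hg19) and Picard the tool against PCR duplicates, and the authors then applied iterative correction. All versions, and how bins with few reads were treated, were not given in the sources used here. Each deposited signal is the contact frequency of 2 bins of 40 kb after that correction. The maps were not all alike, since the unnumbered SW480 map held 69836 same-bin values and the SNU-C1, HCC1954 and OE33 maps 0. The SW480 maps also held few pairs between chromosomes. Whether SW480 was corrected in the same way as the other lines is not stated in these sources. Each value was taken as read pairs times a factor for each bin, and whole read pairs were recovered. Of the values recovered as up to 20 read pairs, at least 99.98% in each map lay within 0.02 of a whole number. Larger values were not checked in this way. Same-bin pairs were left out. Distance shares, insulation and compartments used the corrected values, coverage the read pairs. Gene starts came from GENCODE lifted to hg19 coordinates.

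Poisson intervals (95%, exact) cover counting error only. Listed are arms and blocks that passed limits, the 10 largest compartment stretches and the 5 leading boundaries, chromosomes and chromosome pairs, with overlapping or nearest genes, and the fixed gene lists, some members of which are not reported here. The comparisons and gene lists were chosen with earlier results of these data known. The recovery of read pairs and the calls of boundaries, compartments and specific block pairs were tested on simulated data. Those data had no copy-number changes, and the compartment test chose its eigenvector by the planted answer plus noise. They therefore do not show how the calls perform on rearranged arms. Software was numba 0.67.0, SciPy 1.17.1, Matplotlib 3.10.9, pandas 2.3.3 and NumPy 2.4.6 under Python 3.11.15.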

Additional observations from a re-analysis of the deposited data

How the results depend on the processing

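Of the values recomputed under alternatives, 59 were classed as same, 38 as moved, and none changed direction. The limit differed between results, so these counts reflect no common tolerance. With expected values from the same chromosome, 1231 specific block pairs within chromosomes were classed as same (1815 reported). Without chromosome 15, a share over 20 Mb of 0.742 times the median was classed as moved (0.752 reported). No paired analysis was possible because only SW480 has numbered replicates. The replicates measure the spread of a single line, and what moves a value below was not tested beyond the alternative itself. With either SW480 replicate alone, the boundary strength difference was 0.025 to 0.026 (0.026 reported), the A blocks in SNU-C1 only 160 to 161 (260), and the compartment strength difference -0.18 to -0.17 (-0.24).

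Without iterative correction these were 0.047, 129 and -0.29, with 542 B blocks (360), 5604 specific block pairs within chromosomes (1815) and 12669 between them (4613). With a coverage minimum of 0.5 they were 0.027, 163 and -0.15. Without chromosome 15 the share over 20 Mb was 0.742 times the median (0.752), the boundary strength difference 0.022 and the specific pairs 617. Thinning to the shallowest map gave 0.025 and -0.22. The strength difference was 0.040 with a 480-kb window and 0.043 with a tolerance of 1 bin, which gave 345 boundaries in SNU-C1 only (204), while 5 bins gave 125. Blocks of 500 kb gave 101 A, 139 B and -0.30, and a score difference of 1 gave 152 A and 177 B. Arm limits of 1.5 and 0.67 left 3 high and 1 low arm. There were 8555 specific pairs within chromosomes without a read-pair minimum and 580 with 400-kb blocks. Between chromosomes 2-Mb blocks gave 1116 and expected values from block coverage 2750. Of the alternatives added after seeing the data, the score from constant blocks gave 106 A and 219 B, and leaving out 4q and 5q gave 88 A and a compartment strength difference of -0.23.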
